A study of Mus musculus with 91 samples.

Results

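The miRNAs described here are the mature products of the miR-199a and miR-199b, miR-214, miR-143 and miR-145a genes, a set of microRNAs best known from mesenchymal cells. They were chosen by name, as the 7 entries mmu-miR-199a-5p, mmu-miR-199a-3p, mmu-miR-199b-3p, mmu-miR-214-3p, mmu-miR-143-3p, mmu-miR-145a-5p and mmu-miR-145a-3p among the 1504 mature miRNAs of the count table. The entries for miR-199a-3p and miR-199b-3p hold the same mature RNA and carried equal counts in 88 of 88 libraries, so the 7 entries give 6 signals. The mouse prefix mmu is left out below, and miR-199a-3p stands for both.

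The libraries were made by CAS-seq, a small RNA sequencing method in which Cas9 removes adapter by-products, so that trace RNA from small embryo parts can be read. Mutant embryos were obtained by base editing in zygotes, which placed stop codons in *Dnmt1* (*Dnmt1*-KO), in both *Dnmt3a* and *Dnmt3b* (*Dnmt3a/3b*-DKO) or in all 3 DNA methyltransferase genes (*Dnmt*-null). Extraembryonic ectoderm (Exe) and epiblast (Epi) were dissected from each of these genotypes and from controls at E6.5, with 4 libraries per group, and at E7.5, with 4 libraries per group except 3 for control Epi and 3 for *Dnmt*-null Epi. Zygotes came from B6D2F1 females (C57BL/6J crossed with DBA2) mated to homozygous *Oct4-EGFP* transgenic males of C57BL/6J background, so that controls and mutants alike carry this reporter, and how many embryos went into a library is not given in the sources used here. The other libraries come from androgenetic haploid embryonic stem cells (AG-haESCs), which can replace sperm, and from semi-cloned (SC) embryos made by injecting such cells into oocytes. AG-haESC libraries are labelled WT (3), O48 (3) and Mir-6KO (2). According to the methods, O48 is the AG-haESC line in which miRNA deletions were made. The study describes the cells with 6 deleted miRNAs as DKO-AG-haESCs, that is, cells in which the imprinting control regions H19-DMR and IG-DMR are deleted, and the sources used here do not state in so many words that O48 carries these 2 deletions. SC embryos at E6.5 are labelled WT, DKO and Dnmt-TKO (3 each), and SC embryos at E7.5 are labelled Control and Mir-6KO-Dnmt-TKO (3 each), where TKO is written *Dnmt*-null here. The paper's figure legends name the E6.5 SC material of these labels as epiblast, and name no tissue for the E7.5 SC embryos. In the SC labels DKO stands for the deletion of those 2 imprinting control regions and not for *Dnmt3a/3b*-DKO. The E7.5 SC controls were made from the cells with these deletions.

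A miRNA gene is transcribed as a hairpin, whose 5′ and 3′ arms are cut out as the -5p and -3p mature forms, and the loaded arm finds messenger RNAs mainly through its seed, bases 2 to 8. The *Mir199a-2* hairpin of miR-199a and that of miR-214 are processed from *Dnm3os*, a long noncoding RNA that is transcribed in mesenchyme and is needed for normal skeletal development. miR-143 and miR-145 are made from one precursor transcript, which serum response factor and myocardin activate in smooth muscle, and both are also abundant in fibroblasts. Single miRNAs of these genes are therefore often read as marks of mesenchyme, although hairpins and arms can be present without their neighbours.

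The sequences of the miR-199a, miR-199b and miR-214 forms are shown because they carry 3 different seeds. They are RefSeq sequences (GRCm38.p6), written 5′ to 3′, with the seed in capitals.
miR-199a-5p: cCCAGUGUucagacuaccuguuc
miR-199a-3p and miR-199b-3p: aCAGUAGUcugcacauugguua
miR-214-3p: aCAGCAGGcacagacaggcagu
Among the 1679 mature mouse miRNAs of RefSeq used here, the seed of miR-199a-5p was found in no other that is listed. The seed of miR-199a-3p was shared only with miR-199b-3p, and that of miR-214-3p only with miR-761. For *Mir199b* this set lists only the -3p form, so the seed of miR-199b-5p was not compared.

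The hairpins lie in genes of the dynamin family (GRCm38, GENCODE vM21 annotation). *Mir199a-2* (chr1:162217814-162217923) and *Mir214* (chr1:162223368-162223477) both lie on the plus strand, in exons of *Dnm3os*, inside an intron of *Dnm3*, which runs on the minus strand. They are 5444 bases apart. *Mir199a-1* (chr9:21496495-21496564, minus strand) lies in an intron of *Dnm2*, and *Mir199b* (chr2:32318460-32318569, plus strand) in an intron of *Dnm1*, both antisense to the host. Counts of miR-199a-5p and miR-199a-3p cannot be divided between *Mir199a-1* and *Mir199a-2*, and those of miR-199a-3p not from *Mir199b* either. *Mir143* and *Mir145a* lie 1301 bases apart on the minus strand of chromosome 18, and the sequences of their products are not shown here.

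Values are given as CPM, the count of a miRNA per 1000000 counts of all miRNAs in its library. A miRNA was called different where the Benjamini-Hochberg adjusted p of edgeR's quasi-likelihood test over all miRNAs tested was under 0.05, and log2 fold changes are given with their standard error (SE). Where groups are said not to overlap, this describes the libraries only, since the share of all miRNAs without overlap was not counted. The 88 libraries held 45242 to 26970637 counts each. Exe and Epi libraries at E6.5 were shallow, with 45242 to 600821 counts, against 266379 to 2394918 at E7.5, so that stage and depth moved together. A count of 0 allows up to 3 counts, and such limits cover counting error only, since reads were amplified by PCR. The labels do not say whether libraries of one group came from separate embryos or cultures, so p-values measure the spread between these libraries. In bulk tissue, fewer cells of a type and less RNA per cell cannot be told apart. Both tissues carried their own marker miRNAs. The list of miR-302 and miR-367 of epiblast summed to 130389 to 200354 CPM in control Epi and 17588 to 30822 CPM in control Exe at E6.5, and the list of the *Sfmbt2* cluster, which is high in trophoblast, to 7563 to 33735 and 50804 to 88583 CPM. The libraries labelled Mir-6KO went against their label, as given beside their values.

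The 6 signals were of low to moderate level and differed widely in detection. Over the 62 Exe and Epi libraries, miR-143-3p and miR-199a-5p were counted in 60 libraries each, miR-199a-3p in 56, miR-145a-3p in 49 and miR-145a-5p in 39. miR-214-3p was counted in 9, with 64 counts in all against 4610 of miR-199a-5p. *Mir199a-2* shares the *Dnm3os* transcript with *Mir214*, but miR-199a-5p also comes from *Mir199a-1*, outside *Dnm3os*. These counts therefore do not compare the products of a single transcript. In no library of control Epi was a count of miR-214-3p seen, and control Exe held 1 count of it at E6.5 and 2 counts at E7.5. In all 88 libraries it reached 120 counts, 47 of them in 1 library labelled Mir-6KO, and more than 3 counts in 7 libraries. It did not pass the count filter in any comparison of embryos, and levels under 3 counts, which stand for up to 11.3 CPM in an Exe library at E7.5 and up to 45.6 CPM in control Exe at E6.5, were not detectable at this depth.

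The arms were also unequal. Of the counts of both miR-199a arms in Exe and Epi, 71.6% were of the -5p arm, and this share was 78.5% in Exe and 50.4% in Epi. For miR-145a the -3p arm, usually the minor one, held 84.5% of the counts, and it was the larger in 27 of the 28 embryo libraries with at least 20 counts of both arms. miR-143-3p held 97.5% of the miR-143 counts. Levels of different arms and miRNAs are not comparable as molecules, because each sequence may be ligated and amplified with its own efficiency.

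**Figure D1:**
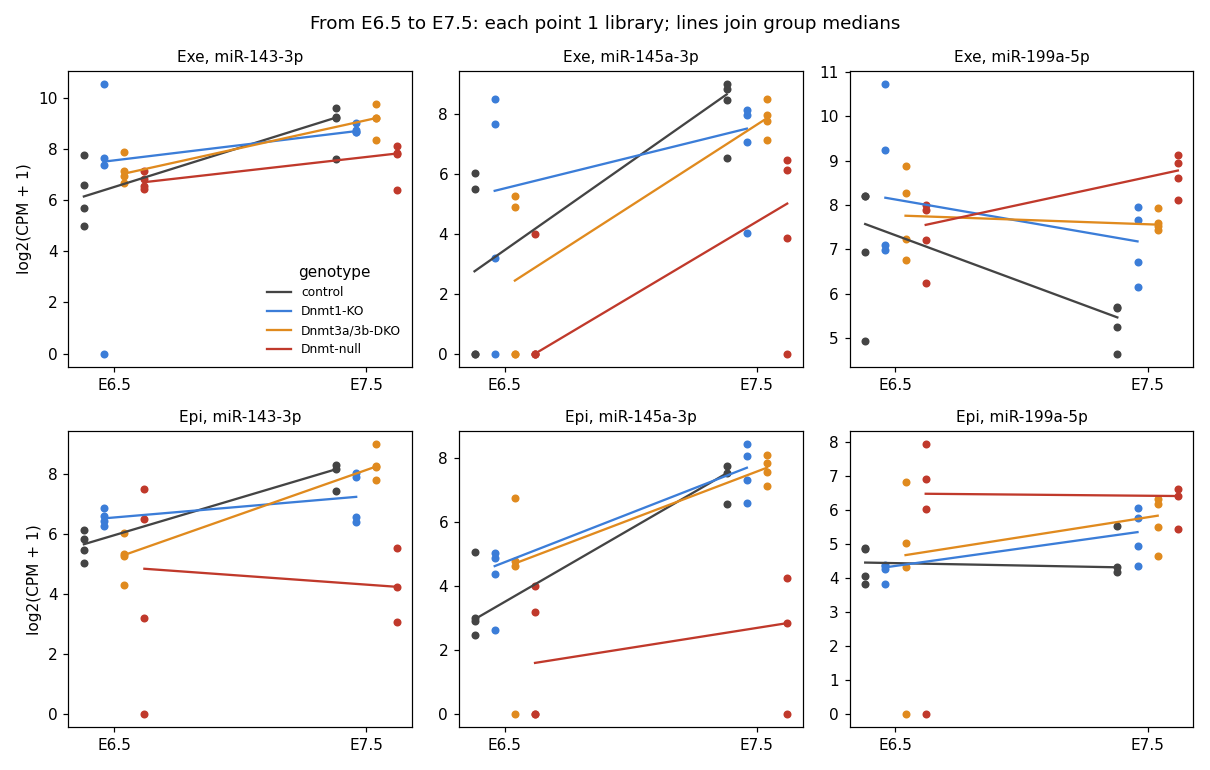
Level of miR-143-3p, miR-145a-3p and miR-199a-5p in Exe and Epi by stage, as log2 of CPM plus 1, with colours for the genotypes. Each point is 1 library and lines join the group medians. The E7.5 Epi controls of miR-143-3p (170 to 311 CPM) lie above every E6.5 Epi control (32.0 to 69.3 CPM).

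Between E6.5 and E7.5, miR-143-3p and miR-145a-3p rose in the controls of both tissues. In control Epi, miR-143-3p was at 55.9, 32.0, 69.3 and 43.6 CPM at E6.5 and at 311, 284 and 170 CPM at E7.5. The groups did not overlap, and the log2 fold change was 2.45 (SE 0.78, adjusted p = 0.0197). miR-145a-3p was at 6.99, 32.0, 4.47 and 6.54 CPM in control Epi at E6.5, which stands for 2 to 9 counts, and at 215, 183 and 92.4 CPM at E7.5. Here too every E7.5 library was above every E6.5 library (log2 fold change 3.88, SE 1.18, adjusted p = 0.0137). Of all miRNAs tested in Epi between the stages, 17.5% were called, 6.08% as higher at E7.5.

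In control Exe, miR-143-3p was at 30.4, 216, 94.0 and 51.1 CPM at E6.5 and at 777, 195, 602 and 587 CPM at E7.5. One E7.5 library lay below the highest E6.5 library, and the log2 fold change was 2.45 (SE 0.76, adjusted p = 0.0333). miR-145a-3p in control Exe was at 0, 64.7, 44.5 and 0 CPM at E6.5 and at 514, 92.2, 459 and 358 CPM at E7.5, without overlap (log2 fold change 3.61, SE 1.14, adjusted p = 0.0356). miR-145a-5p, the arm usually read as the active one, had 0 counts in all 4 control Exe libraries at E6.5 and was at 78.4, 28.0, 52.2 and 84.1 CPM at E7.5. It was therefore at least 10.3-fold higher at E7.5, taking 3 counts over the E6.5 group as its limit (adjusted p = 0.0356). The share of miRNAs called in Exe between the stages was 7.6%, with 5.62% higher at E7.5 (37 higher and 13 lower, and 30 and 24 with RLE factors). The 5 members tested went both ways, with 3 values above 0 and 2 below, and their median log2 change was 2.45 against 0.08 over all miRNAs tested. The calls of miR-143-3p and miR-145a-3p in Exe were lost with size factors of the RLE method (adjusted p = 0.0554 and 0.0523), and without library 1, 3 or 4 of either stage, with log2 fold changes of 2.20 to 2.48 for miR-143-3p and 3.13 to 3.96 for miR-145a-3p. The call of miR-145a-5p in Exe was lost without 6 of the 8 libraries. In Epi miR-143-3p was lost without E6.5 library 1, 2 or 4 or E7.5 library 1 (2.07 to 2.30) and miR-145a-3p without E6.5 library 1, 3 or 4 (3.46 to 3.56). In control Exe the endothelial list (both arms of miR-126a) summed to 179 to 302 CPM at E6.5 and 1350 to 3075 CPM at E7.5. The miR-290 cluster summed to 74858 to 112579 and 50343 to 63939 CPM. The white cell and epiblast lists were higher without overlap, and the other marker lists overlapped. Their part was not tested.

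The miR-199a arms were not called between the stages. In control Exe miR-199a-5p was at 122, 295, 29.7 and 294 CPM at E6.5 and at 50.03, 51.4, 37.2 and 24.0 CPM at E7.5, which overlapped (log2 fold change -2.18, SE 0.74, adjusted p = 0.0578). It passed as lower at E7.5 in 4 alternatives (adjusted p = 0.00777 by DESeq2, 0.0448 with RLE factors, 0.0477 with a mean of at least 10 counts and 0.0403 in a fit of the controls only). miR-199a-3p in Exe was at -3.29 (SE 1.18, adjusted p = 0.0736), and it passed by DESeq2 (0.0101), without a count filter (0.0378) and in a fit of the controls only (0.0427). In Epi the stage values of miR-199a-5p and miR-199a-3p were 0.50 (SE 0.79, adjusted p = 0.776) and 1.64 (SE 1.18, adjusted p = 0.410), of the same sign as that of miR-143-3p. At E6.5 the controls differed between tissues in this miRNA. Control Epi held 27.9, 28.5, 15.6 and 13.1 CPM of miR-199a-5p, all below every control Exe library, and the log2 fold change of Exe against Epi was 2.87 (SE 0.79, adjusted p = 0.00582), beside 22.8% of miRNAs called and 8.51% higher in Exe (56 higher and 94 lower, and 81 and 52 with RLE factors). This call held under every alternative tried. miR-199a-3p had a similar value, 2.93 (SE 1.18), with an adjusted p of 0.0634, and passed the test in 5 of 7 alternatives. At E7.5 no member was called between control Exe and Epi by edgeR, adjusted or unadjusted, or by DESeq2, while 26.4% of all miRNAs were. The value of miR-199a-5p was then 0.19 (SE 0.76) and that of miR-143-3p 0.70 (SE 0.77).

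Ordered by mean level over the 16 groups of Exe and Epi, neighbouring groups overlapped in all 15 neighbour pairs for each of the 6 signals. The lowest mean of miR-143-3p, 23.4 CPM, was that of *Dnmt*-null Epi at E7.5.

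**Figure D2:**
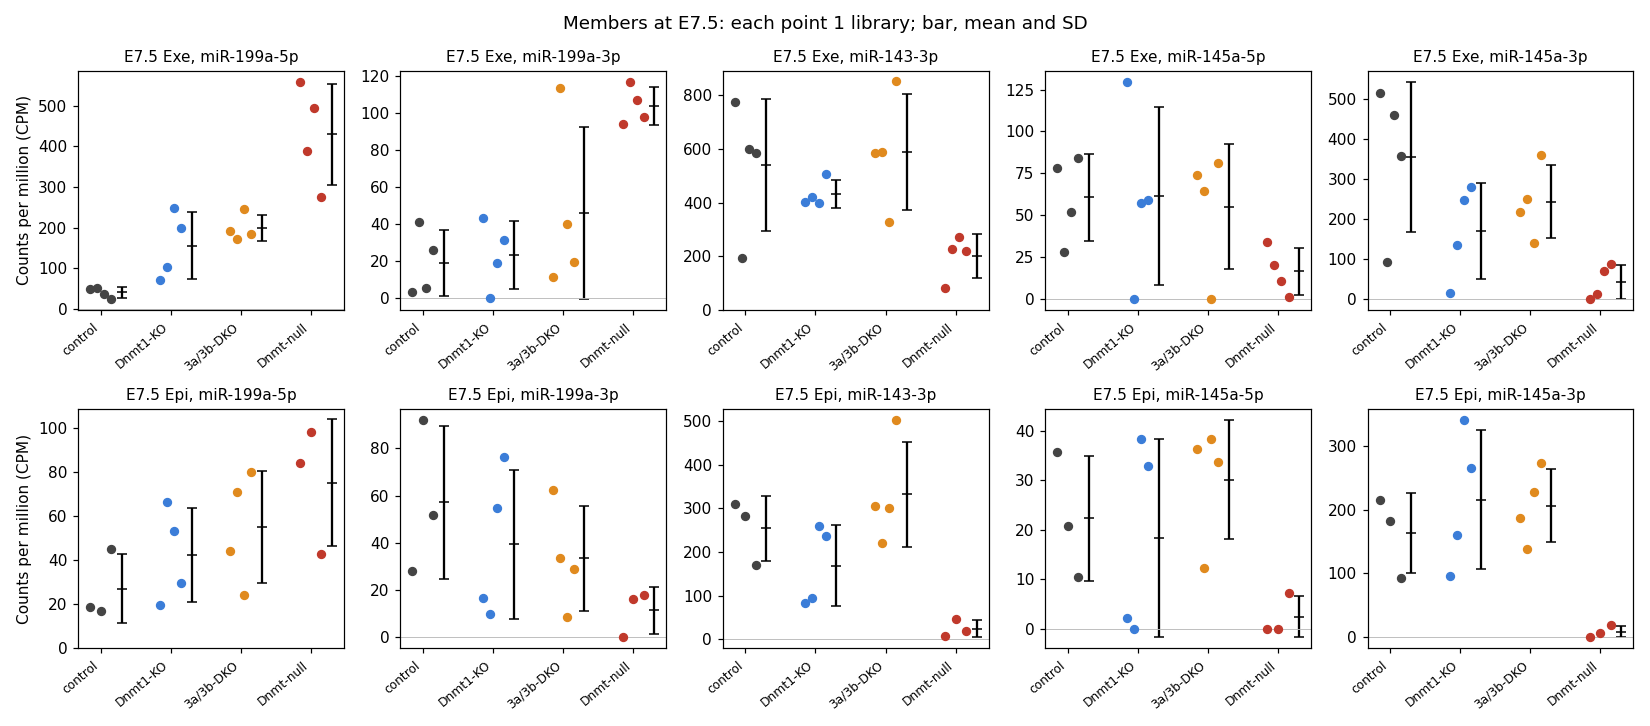
CPM, on a linear axis, of 5 signals in each Exe and Epi library at E7.5 by genotype. Each point is 1 library, and bars give the mean and SD. *Dnmt*-null Epi lies below the control in miR-143-3p and miR-145a-3p, and all 3 mutant Exe groups lie above the control in miR-199a-5p.

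In E7.5 Epi, miR-143-3p and miR-145a-3p fell in *Dnmt*-null embryos. In the other genotypes no member was called by edgeR, adjusted or unadjusted, or by DESeq2. miR-143-3p, a miRNA of smooth muscle and fibroblasts, was at 7.33, 45.1 and 17.8 CPM in *Dnmt*-null Epi, on 2, 22 and 5 counts. All 3 libraries were below the 3 controls (311, 284 and 170 CPM), and the log2 fold change was -3.60 (SE 0.58, adjusted p = 1.39e-04). miR-145a-3p was at 0, 6.15 and 17.8 CPM in *Dnmt*-null Epi, again below every control library (215, 183 and 92.4 CPM), and its log2 fold change was -4.60 (SE 0.71, adjusted p = 9.66e-05). Of all miRNAs tested in this comparison 33.7% were called, 17.3% as lower, and 2 of the 5 signals tested were. All calls split into 107 higher and 113 lower, and into 132 and 67 with TMM factors set without the *Dlk1-Dio3* miRNAs. Of the 5 members 4 had values below 0 and 1 above, and their median log2 change was -3.52 against -0.19 over all miRNAs tested.

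In the other mutants of E7.5 Epi, miR-143-3p was at 83.7, 94.1, 259 and 237 CPM in *Dnmt1*-KO Epi and at 305, 221, 301 and 503 CPM in *Dnmt3a/3b*-DKO Epi, and both groups overlapped with the control. The log2 fold change of miR-143-3p against control was -0.79 (SE 0.45, adjusted p = 0.271) in *Dnmt1*-KO and 0.30 (SE 0.45, adjusted p = 0.839) in *Dnmt3a/3b*-DKO, where 16.3% and 7.67% of miRNAs were called. The calls in *Dnmt1*-KO Epi were 54 higher and 52 lower, and 85 and 14 with TMM factors set without the *Dlk1-Dio3* miRNAs. Tested directly, *Dnmt*-null Epi was lower than *Dnmt1*-KO Epi in miR-143-3p (-2.81, SE 0.55, adjusted p = 0.0032) and miR-145a-3p (-4.80, SE 0.70, adjusted p = 2.87e-04), beside 10.9% called and 5.83% lower. Against *Dnmt3a/3b*-DKO Epi the values were -3.90 (SE 0.57, adjusted p = 2.44e-04) for miR-143-3p and -4.85 (SE 0.70, adjusted p = 2.26e-04) for miR-145a-3p, beside 16.4% called and 9.82% lower. All calls there were 43 higher and 64 lower, and 71 and 36 with TMM factors set without the *Dlk1-Dio3* miRNAs. These comparisons share the *Dnmt*-null libraries. The calls of both miRNAs in *Dnmt*-null Epi against control held in every alternative and without any single library, with log2 fold changes of -4.49 to -3.12 for miR-143-3p and -5.68 to -4.01 for miR-145a-3p.

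The other members did not pass the test in *Dnmt*-null Epi. miR-145a-5p was at 0, 0 and 7.14 CPM against 35.7, 20.8 and 10.5 CPM in the controls, without overlap (log2 fold change -3.52, adjusted p = 0.112). miR-199a-3p was at 0, 16.4 and 17.8 CPM against 27.9, 92.1 and 51.7 CPM, also without overlap (log2 fold change -2.51, adjusted p = 0.0701, and called by DESeq2, with an adjusted p of 0.0392). With groups this small, and no share of all miRNAs without overlap beside it, such a separation is no call. miR-199a-5p was at 84.3, 98.3 and 42.8 CPM against 18.9, 17.0 and 45.0 CPM, and overlapped with the control. The means of the 2 arms of miR-199a thus lay on opposite sides of the control. miR-199b-5p, the only mature form here that is specific to *Mir199b*, had 0 counts in the 3 *Dnmt*-null Epi libraries and 46, 29 and 44 counts in the controls, at least 7.09-fold lower with 3 counts over the group as the limit (adjusted p = 0.0396). It had 0 counts in all 4 control Exe libraries at E7.5.

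Depth and the sums of several marker lists also differed between *Dnmt*-null and control Epi at E7.5. The *Dnmt*-null Epi libraries held 272867 to 488108 counts, so that 3 counts stand for 6.15 to 10.99 CPM, while the controls held 1623256 to 2325698. The striated muscle list (5 miRNAs, which mesoderm derivatives switch on) summed to 142.3 to 422 CPM in the controls and 17.8 to 45.1 CPM in *Dnmt*-null Epi. miR-133a-3p, a miRNA of heart and skeletal muscle, fell there by 3.78 on the log2 scale (SE 0.68, adjusted p = 4.22e-04), and miR-1a-3p, miR-133b-3p and miR-206-3p were at 0, where miR-206-3p and miR-499-5p were at 0 in the controls. The endothelial list (both arms of miR-126a) summed to 267 to 596 CPM in the controls and 156 to 232 CPM in *Dnmt*-null Epi, the trophoblast list to 2490 to 3096 and 5280 to 10756 CPM, the white cell list to 130 to 147 and 924 to 1103 CPM, and the epiblast list to 202279 to 212606 and 105333 to 164935 CPM. In both groups miR-223-3p of the white cell list was at 0. That list summed to 1354 to 1384 CPM in the AG-haESC libraries labelled WT, so its sum does not stand for white cells alone. The endoderm list summed to 3459 to 4174 CPM in the controls and 2334 to 3042 CPM in *Dnmt*-null Epi, the miR-290 cluster of pluripotent cells to 17584 to 17933 and 27781 to 34830 CPM, the epithelial list to 9015 to 9301 and 7898 to 9604 CPM, and the red cell list to 59.8 to 91.0 and 47.6 to 67.8 CPM. Their part in the result was not tested.

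**Figure D3:**
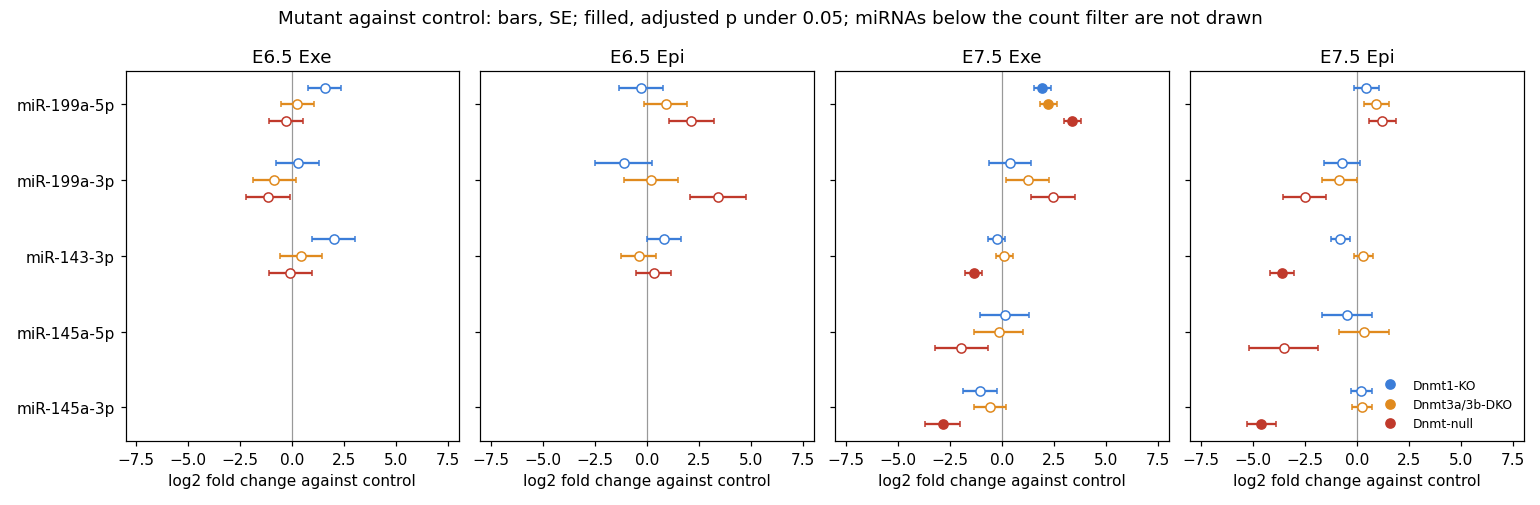
Log2 fold changes of each tested signal in the mutants against control, with bars of 1 SE from edgeR's fit, in Exe and Epi at both stages. Filled points passed the test. At E7.5 miR-199a-5p in Exe lies at 1.93, 2.22 and 3.38, and miR-143-3p and miR-145a-3p in *Dnmt*-null Epi at -3.60 and -4.60.

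In E7.5 Exe miR-199a-5p rose in all 3 mutant genotypes. The controls held 50.03, 51.4, 37.2 and 24.0 CPM of miR-199a-5p. *Dnmt1*-KO Exe held 70.5, 104, 249 and 200 CPM, *Dnmt3a/3b*-DKO Exe 191, 172, 245 and 184 CPM, and *Dnmt*-null Exe 559, 389, 494 and 276 CPM. All 12 mutant libraries were above all 4 controls. The log2 fold changes were 1.93 (SE 0.40, adjusted p = 0.00633) in *Dnmt1*-KO, 2.22 (SE 0.40, adjusted p = 0.00515) in *Dnmt3a/3b*-DKO and 3.38 (SE 0.42, adjusted p = 4.92e-05) in *Dnmt*-null. Of all miRNAs tested, 5.03%, 3.02% and 9.88% were called in these comparisons, 4.19%, 3.02% and 6.87% as higher. The comparisons share the 4 control libraries. *Dnmt*-null against *Dnmt1*-KO gave 1.45 for miR-199a-5p (adjusted p = 0.0697) and against *Dnmt3a/3b*-DKO 1.16 (adjusted p = 0.122), beside 1.17% and 3.85% of miRNAs called, so the larger value in *Dnmt*-null did not pass the test. By DESeq2 both of these differences passed (adjusted p = 0.00326 and 0.0228). The call in *Dnmt1*-KO was lost when only those 2 groups were fitted (adjusted p = 0.0767). Those in *Dnmt3a/3b*-DKO and *Dnmt*-null held in every alternative.

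The -3p arm of the same hairpins was not called by edgeR in any mutant at E7.5. miR-199a-3p was at 3.34, 40.9, 5.31 and 26.03 CPM in the E7.5 Exe controls and at 93.9, 117, 107 and 97.5 CPM in *Dnmt*-null Exe. The 4 *Dnmt*-null libraries were close together and above the 4 controls, and the log2 fold change of 2.47 did not pass the test (adjusted p = 0.167, and 0.0494 by DESeq2). *Dnmt1*-KO Exe held 42.9, 0, 18.7 and 31.2 CPM of miR-199a-3p and *Dnmt3a/3b*-DKO Exe 11.3, 113, 39.7 and 19.2 CPM, and both overlapped with the control. miR-214-3p was counted in 1 library each of *Dnmt1*-KO (16 counts) and *Dnmt3a/3b*-DKO Exe (14 counts) and in none of *Dnmt*-null Exe at E7.5.

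miR-143-3p and miR-145a-3p also fell in *Dnmt*-null Exe at E7.5. miR-143-3p was at 82.6, 229, 273 and 219 CPM against 777, 195, 602 and 587 CPM in the controls. One control library lay among the *Dnmt*-null libraries, and the log2 fold change was -1.35 (SE 0.42, adjusted p = 0.0432). miR-145a-3p was at 0, 13.7, 70.2 and 88.0 CPM against 514, 92.2, 459 and 358 CPM, without overlap (log2 fold change -2.85, SE 0.86, adjusted p = 0.0384). Of all miRNAs tested 3.02% were called as lower (41 higher and 18 lower, and 56 and 14 with TMM factors set without the *Dlk1-Dio3* miRNAs). Both calls were lost without *Dnmt*-null library 1 or 2 or control library 1, 3 or 4, with log2 fold changes of -1.42 to -1.11 for miR-143-3p and -2.92 to -2.53 for miR-145a-3p, and when only those 2 groups were fitted (adjusted p = 0.1004 for miR-143-3p and 0.0692 for miR-145a-3p). The call of miR-143-3p was also lost with TMM factors set without the *Dlk1-Dio3* miRNAs (adjusted p = 0.0721) and with the replicate number as a block (adjusted p = 0.0767). In *Dnmt1*-KO and *Dnmt3a/3b*-DKO Exe neither miRNA was called, with miR-143-3p at 400 to 507 and 327 to 853 CPM. The difference of the *Dnmt*-null effect between Exe and Epi at E7.5 was 2.28 for miR-143-3p (SE 1.12, adjusted p = 0.354) and 1.68 for miR-145a-3p (SE 1.61, adjusted p = 0.788), and it was 2.21 for miR-199a-5p (SE 1.09, adjusted p = 0.363), beside 0.608% of miRNAs called, and at E6.5 no member passed this test either, beside 0.912%. At an unadjusted p under 0.05 these tests gave 3 members at E7.5 and 2 at E6.5, and DESeq2 called 0 and 1.

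Beside these values, the endothelial list summed to 1350 to 3075 CPM in control Exe and 191 to 2359 CPM in *Dnmt*-null Exe at E7.5, the red cell list to 195 to 821 and 84.7 to 210 CPM, the white cell list to 165 to 1973 and 43.5 to 703 CPM, and the striated muscle list to 93.3 to 382 and 46.4 to 833 CPM. The trophoblast list summed to 53609 to 65740 CPM in the controls and 38733 to 69014 CPM in *Dnmt*-null Exe. The epiblast list summed to 33367 to 45944 CPM in control Exe and 17252 to 27413 CPM in *Dnmt*-null Exe, without overlap, and the epithelial list to 9860 to 12669 and 4633 to 9612 CPM, also without overlap. The endoderm list was at 3076 to 5221 and 1694 to 7995 CPM, and the miR-290 cluster at 50343 to 63939 and 44027 to 53839 CPM. Their part in the results was not tested.

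At E6.5 no member was called by edgeR in any mutant against control, with 3 of the 6 signals tested in each tissue. At an unadjusted p under 0.05, and also by DESeq2, 1 of them passed, miR-199a-3p in *Dnmt*-null Epi. The shares of all miRNAs called were 0%, 0.532% and 0.532% in Exe and 0.733%, 3.42% and 13% in Epi, in the order *Dnmt1*-KO, then *Dnmt3a/3b*-DKO, then *Dnmt*-null. In E6.5 Exe miR-199a-5p was at 135, 127, 604 and 1695 CPM in *Dnmt1*-KO, at 309, 472, 108 and 150 CPM in *Dnmt3a/3b*-DKO and at 75.2, 237, 254 and 148 CPM in *Dnmt*-null, and all 3 groups overlapped with the controls. The log2 fold change of miR-199a-5p in *Dnmt*-null Exe was -0.29 (SE 0.80). In *Dnmt*-null Epi at E6.5 miR-143-3p was at 0, 88.6, 180 and 8.12 CPM on at most 12 counts, on both sides of the controls (log2 fold change 0.32, SE 0.85). miR-199a-3p there was at 752, 53.2, 165 and 32.5 CPM against 0, 42.7, 22.3 and 15.3 CPM (log2 fold change 3.41, SE 1.33, adjusted p = 0.0939), and the highest value stands for 34 counts. Between *Dnmt*-null and the other mutants at E6.5 no member was called by edgeR either, while unadjusted p-values under 0.05 came to 1 in Exe and 2 and 1 in Epi, and DESeq2 called 1 in Epi against *Dnmt1*-KO, beside 0% of miRNAs in Exe and 1.96% and 1.22% in Epi for *Dnmt1*-KO and *Dnmt3a/3b*-DKO. The SEs of the members against control were 0.79 to 1.36 at E6.5, where that of miR-199a-5p in E7.5 *Dnmt1*-KO Exe was 0.40.

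Whether the *Dnmt*-null effect changed between the stages was tested as a difference of differences over the 62 libraries. In Epi it passed for miR-143-3p, -3.81 (SE 1.196, adjusted p = 0.0321), and for miR-199a-3p, -5.64 (SE 1.82, adjusted p = 0.0365), beside 10.6% of miRNAs called and 2.89% lower (51 higher and 19 lower, and 32 and 29 with RLE factors). The call of miR-143-3p was lost without *Dnmt*-null library 3 at E6.5 (-3.06, adjusted p = 0.126), and also without control library 1 or 2 at E6.5, *Dnmt*-null library 1 or 3 at E7.5 or control library 1 at E7.5. That of miR-199a-3p was lost without *Dnmt*-null library 1 at E6.5 (-4.41, adjusted p = 0.152), and also without control library 1 at E6.5, any *Dnmt*-null library at E7.5 or control library 2 at E7.5. The stage difference for miR-145a-3p in Epi was -3.25 (SE 2.29, adjusted p = 0.467). In Exe no member was called by edgeR, with 3.50 for miR-199a-5p (SE 1.04, adjusted p = 0.139), beside 0.608% of miRNAs called. At an unadjusted p under 0.05 the number in Exe was 3, and DESeq2 called 1, miR-199a-5p (adjusted p = 0.0280).

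Across the 62 Exe and Epi libraries, miR-143-3p was most like miRNAs of the *Mir322*/*Mir503*/*Mir351* cluster on the chromosome, which is induced in mesoderm and muscle differentiation. Spearman's rho of log2 CPM was 0.85 for miR-503-3p, 0.82 for miR-503-5p, 0.81 for miR-322-5p, and 0.79 for miR-351-5p and miR-322-3p, which is above its values with miR-145a-5p (0.70) and miR-145a-3p (0.64). Like miR-143-3p, miR-503-3p fell in *Dnmt*-null Epi at E7.5, by 3.14 on the log2 scale (SE 0.46, adjusted p = 6.32e-05), as did miR-351-5p, by 2.45 (SE 0.31, adjusted p = 1.53e-05). miR-322-3p fell by 2.78 (SE 0.40, adjusted p = 6.32e-05), and no call was found there for miR-503-5p and miR-322-5p. These miRNAs were picked by likeness over libraries that include those of this comparison, so a shared fall is partly built in. The rho of miR-143-3p with miR-199a-5p was 0.17 and with miR-199a-3p 0.03. The miRNAs most like miR-199a-3p were less close, with 0.47 for let-7a-5p, 0.46 for miR-669c-3p, 0.44 for let-7f-5p, 0.37 for let-7c-5p and 0.36 for miR-669c-5p, and its rho with miR-199a-5p was 0.46. For miR-199a-5p, whose nearest miRNAs were looked up after its values were seen, they were miR-669c-5p (0.66), miR-467e-5p (0.64), miR-669f-3p (0.63), miR-467d-5p (0.63) and miR-669a-3p (0.62), of the *Sfmbt2* cluster that serves here as the trophoblast list. Of the 5, miR-669c-5p and miR-467e-5p are in that list. These are descriptions over libraries that differ in stage, tissue, genotype and depth.

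Under the thresholds of the study, an absolute log2 fold change above 0.5 at an unadjusted p under 0.05, more members passed in several comparisons, as did more of all miRNAs. For *Dnmt*-null Epi at E7.5 the number rose from 2 to 4 of 5, beside 40.5% of all miRNAs, and for *Dnmt*-null Exe it became 3 with either other mutant as the reference, beside 14.9% and 9.55%. At E6.5 it became 1, 2 and 1 in *Dnmt*-null Epi against control, *Dnmt1*-KO and *Dnmt3a/3b*-DKO, beside 25.9%, 18.1% and 15.6%, and 1 in *Dnmt*-null against *Dnmt1*-KO Exe, beside 3.72%. Between the E6.5 control tissues 2 passed, beside 35%, and between the stages in Exe 5, beside 19.8%. For the differences of the *Dnmt*-null effect, 3 passed between stages in Exe, 2 between tissues at E6.5 and 3 between tissues at E7.5, beside 7.9%, 18.1% and 13.4%.

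A list of 12 other miRNAs that are abundant in fibroblasts and stroma was counted beside the members. In *Dnmt*-null Epi at E7.5, 2 of the 12 fell and none rose, where 17.3% of all miRNAs tested fell, so the list's share was near the background. miR-10b-5p, which is encoded in the *HoxD* cluster, fell by 4.12 on the log2 scale (SE 1.17, adjusted p = 0.0116), and miR-222-3p fell by 1.35 (SE 0.23, adjusted p = 2.39e-04). The list summed to 12796 to 13809 CPM in the controls and 12856 to 15296 CPM in *Dnmt*-null Epi. In *Dnmt*-null Exe at E7.5 only miR-10b-5p passed, at -3.84 (SE 0.74, adjusted p = 0.00157), 1 of 11 tested where 3.02% of all miRNAs fell, with list sums of 8031 to 14396 CPM in the controls and 3857 to 8552 CPM. In *Dnmt1*-KO Epi at E7.5 miR-222-3p was the 1 member called, as lower, and edgeR called none in *Dnmt3a/3b*-DKO Epi or in Exe of either genotype. miR-10b-5p rose with stage in the controls, by 4.30 on the log2 scale in Epi (SE 0.91, adjusted p = 2.47e-04) and by 5.23 in Exe (SE 0.94, adjusted p = 9.44e-05), beside 6.08% and 5.62% of all miRNAs higher. miR-221-3p of the list was lower at E7.5 in Exe, where it was at 0 in the controls (adjusted p = 0.0493). In control Epi the list summed to 14159 to 19865 CPM at E6.5 and 12796 to 13809 CPM at E7.5, so its sum fell. In control Exe it summed to 8330 to 9747 and 8031 to 14396 CPM. Between control tissues at E7.5, 1 of the list was higher in Exe (miR-22-3p) and 5 were lower, beside 26.4% of all miRNAs called, among them miR-27b-3p at -2.50 (SE 0.30, adjusted p = 1.86e-09).

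**Figure D4:**
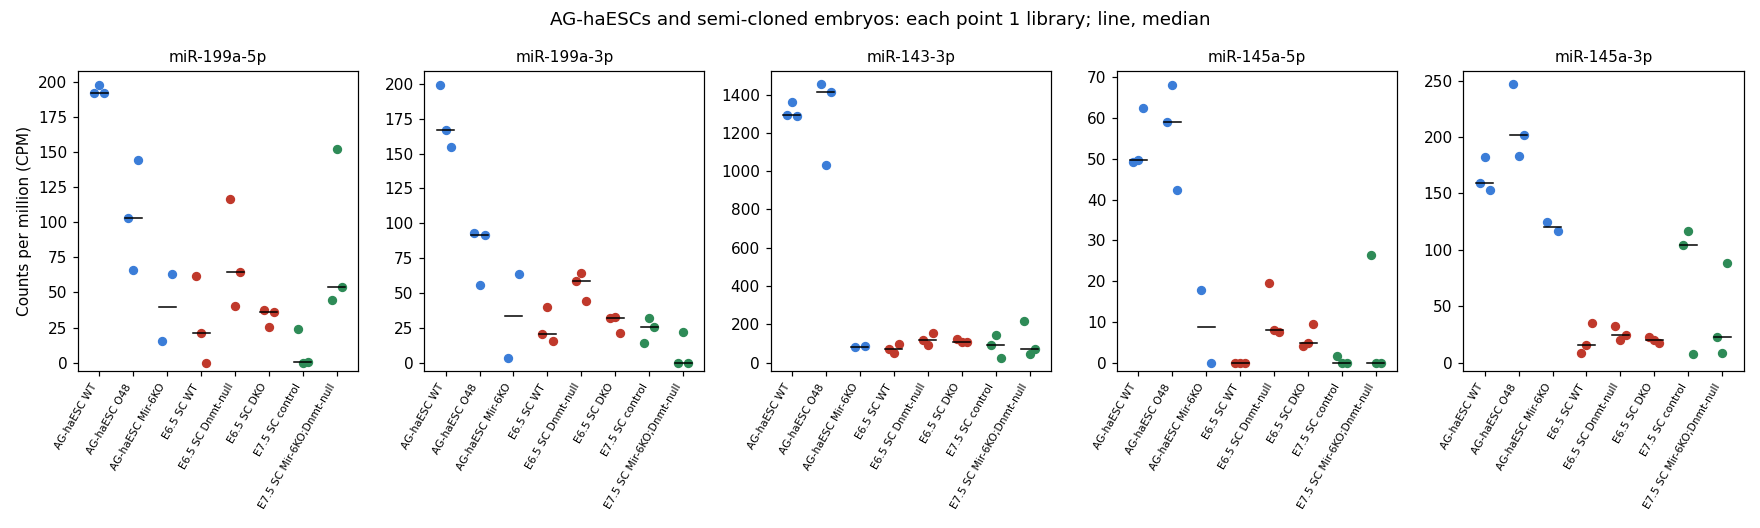
CPM, on a linear axis, of 5 signals in each AG-haESC and SC embryo library. Each point is 1 library, and lines mark the group medians. miR-143-3p lies at 1033 to 1453 CPM in the AG-haESC libraries labelled WT and O48 and at 81.6 and 85.1 CPM in those labelled Mir-6KO.

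AG-haESCs labelled WT and O48 held more miR-143-3p than the mean of any group of embryo parts. It was at 1291, 1360.4 and 1286 CPM in the WT libraries and at 1453, 1033 and 1414 CPM in O48, on up to 8833 counts. No member was called between O48 and WT by edgeR, adjusted or unadjusted, and 1, miR-145a-3p, was by DESeq2, while 13.7% of all miRNAs were called (17 higher and 89 lower, and 55 and 75 with RLE factors). miR-145a-3p was at 159, 182 and 153 CPM in WT and 247, 183 and 202 CPM in O48, miR-145a-5p at 49.1, 49.7 and 62.4 CPM and 58.9, 68.2 and 42.3 CPM, and miR-199a-5p at 192, 198 and 192 CPM and 103, 65.9 and 144 CPM. All O48 libraries were below all WT libraries in miR-199a-5p, without passing the test. miR-143-3p made up 87.2% of the counts of miR-143-3p and miR-145a-3p in these cells and 64.6% in Exe and Epi.

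In the libraries labelled Mir-6KO, miR-143-3p was at 81.6 and 85.1 CPM, below every O48 library (log2 fold change -4.47, SE 0.22, adjusted p = 1.48e-06). miR-145a-3p was at 124 and 116 CPM (log2 fold change -1.32, SE 0.25, adjusted p = 0.00297), and miR-199a-5p at 15.2 and 63.5 CPM (log2 fold change -1.88, SE 0.64, adjusted p = 0.0412). This last call was lost under 4 of 7 alternatives and without Mir-6KO library 1 (-1.16) or O48 library 1 or 3 (-1.87 and -1.59). Of all miRNAs tested 52.1% were called and 31.7% were lower, and the median log2 fold change was -1.88 for the members and -0.82 over all. These libraries went against their label, since 6 of the 6 miRNAs deleted in Mir-6KO cells were above every O48 library, with miR-127-3p at 35728 to 44853 CPM against 551 to 594 CPM. Their list of miR-302 and miR-367 summed to 239331 to 268002 CPM against 924 to 1670 CPM in O48, and the list of the miR-290 cluster of pluripotent cells to 11427 to 13542 against 93892 to 112217 CPM. What the cells of these libraries were cannot be told from the counts, so the direction holds for the libraries labelled Mir-6KO, and the part of these differences in the result was not tested.

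In SC embryos at either stage no member was called by edgeR, adjusted or unadjusted, or by DESeq2, with 4 of the 6 signals tested. At E6.5 miR-143-3p was at 71.0, 49.8 and 96.8 CPM in WT, at 121, 106 and 107 CPM in DKO and at 117, 92.7 and 153 CPM in *Dnmt*-null, and miR-199a-5p at 62.1, 21.1 and 0 CPM, 37.2, 25.2 and 35.9 CPM, and 117, 40.3 and 64.3 CPM. The DKO libraries were above every WT library in miR-143-3p. WT library 3, the one with 0 counts of miR-199a-5p, stood apart, with an epiblast list of 21252 CPM against 195381 and 214514 CPM in the other WT libraries, and without it no member was called either. Of all miRNAs tested 0.217% were called in DKO and 1.52% in *Dnmt*-null against WT. In E7.5 SC embryos miR-199a-5p was at 44.6, 152 and 53.6 CPM in Mir-6KO;*Dnmt*-null and at 23.7, 0 and 0.0752 CPM in the controls. The groups did not overlap, but the controls ranged from 0 to 638 counts, and the log2 fold change of 3.28 had an adjusted p of 0.753, beside 3.08% of miRNAs called. miR-143-3p in these embryos was at 216, 43.7 and 71.1 CPM against 94.2, 145.3 and 25.1 CPM and overlapped. Among these controls, which held 13306003 counts or more each, 1 library thus held 0 counts of miR-199a-5p, where another held 638.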

How the data were processed

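Mature miRNAs were measured by CAS-seq in 88 mouse libraries of the main table. According to the methods, the authors used fastp 0.20.1 for trimming and Bowtie 1.2.1.1 for alignment to the GRCm38 genome, assigned reads to miRBase miRNAs, and compared groups with DESeq2 1.30.1. The deposited values are whole-number counts of reads per mature miRNA and library, not normalized; molecular identifiers are not mentioned. CPM was computed here from these counts and each library's total.

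Counts were tested with edgeR 4.0.16 (R 4.3.3; quasi-likelihood test, TMM factors, filterByExpr with a minimum count of 10), all genotypes of a tissue and stage in one fit, and all 62 Exe and Epi libraries in one fit for stage, tissue and differences of effects. p-values were adjusted over all miRNAs tested. SE is the log2 fold change divided by the square root of F. The code was tested on simulated data. Alternatives were RLE factors, TMM factors without 109 miRNAs of the *Dlk1-Dio3* locus, DESeq2 1.42.0, other count filters, a replicate block, smaller fits, the study's thresholds (log2 fold change beyond 0.5, unadjusted p under 0.05) and leaving out each library. Likeness used a prior count of 2.

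The members and lists were chosen with earlier results of these data known. Named miRNAs are the members, other arms of their genes, called miRNAs of the stroma list, and the 5 miRNAs most like miR-199a-3p, miR-214-3p (which passed no filter) and miR-143-3p; marker miRNAs are named beside the results. No pair of replicates looked like copies (lowest chi-squared per degree of freedom 10.5 over 115 pairs). A second copy of the main table was not used. SC embryos labelled DKO;*Dnmt*-null stand in a table of their own without their DKO controls, so they were not tested. Mature sequences came from RefSeq, where miR-143 and miR-145a are not listed in the table used.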

Additional observations from a re-analysis of the deposited data

Results flagged for a closer look

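Of 68 groups of 4 libraries in which the highest or lowest value of a signal was tested for its distance from the others (Dixon's criterion, only where some library held over 3 counts), 8 had a library standing apart. In 3 of these, all of miR-214-3p, a single library held counts and the others none, which meets the criterion whatever the value is, so the number of groups cannot be set against the 1 in 20 that chance gives for such a criterion. In E6.5 Exe the fourth *Dnmt1*-KO library stood apart in 3 signals. It held 873 CPM of miR-199a-3p (103 counts), where the other 3 libraries held 24.9 to 92.1 CPM, 1466 CPM of miR-143-3p (173 counts, others 0 to 198 CPM) and 178 CPM of miR-145a-5p (21 counts, others 0 to 27.6 CPM). The red cell list summed to 7922 CPM in that library and the white cell list to 2067 CPM, the highest of its group in both. Their part in these values was not tested.

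miR-214-3p was held by a single library in each of 3 groups at E7.5. The values were 13.4 CPM (13 counts) in the first *Dnmt1*-KO Epi library at E7.5, 10.6 CPM (16 counts) in the fourth *Dnmt1*-KO Exe library at E7.5, and 10.6 CPM (14 counts) in the first *Dnmt3a/3b*-DKO Exe library at E7.5, with 0 counts in the others of each group. In the E6.5 libraries, miR-145a-5p was at 57.1 CPM (7 counts) in the second *Dnmt*-null Exe library against 0 to 7.52 CPM, and miR-145a-3p was at 32.0 CPM (9 counts) in the second control Epi library against 4.47 to 6.99 CPM.

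The *Dnmt*-null effect in Epi differed between E7.5 and E6.5 for miR-143-3p (difference -3.81 on the log2 scale, adjusted p = 0.0321 by edgeR) and for miR-199a-3p (-5.64, adjusted p = 0.0365), and both calls were lost without single libraries.

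The 3 libraries labelled 408-AG-haESC, a name whose meaning the labels do not give, were put in no group. They held a median of 1083 CPM of miR-143-3p (1034 to 1098 CPM), and the 6 miRNAs deleted in Mir-6KO cells summed to 409 to 411 CPM in them, against 898 to 998 CPM in O48.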

How the results depend on the processing

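The 48 single values of members with an unadjusted p under 0.05 by edgeR were followed over 748 alternative values. Of these, 655 kept their side of the threshold, 61 lost a call, 32 gained one and 0 changed sign. Values chosen by a low p seldom change sign, and calls gained by other values are not in these numbers. Members called moved as follows where they moved by over 1.5 times. Under the study's thresholds they went from 0 to 1 in E6.5 Exe (*Dnmt*-null against *Dnmt1*-KO) and, in E6.5 Epi, to 2 for *Dnmt*-null against *Dnmt1*-KO and to 1 for *Dnmt*-null against control or *Dnmt3a/3b*-DKO. Under the same thresholds they went from 0 to 3 in E7.5 Exe for *Dnmt*-null against either other mutant, from 2 to 4 in E7.5 *Dnmt*-null Epi, from 1 to 2 between E6.5 control tissues, from 3 to 5 between stages in Exe, and from 0 to 3, 2 and 3 for the differences of the *Dnmt*-null effect between stages in Exe and between tissues at E6.5 and E7.5. With DESeq2 they went from 0 to 1 in E6.5 *Dnmt*-null Epi against both control and *Dnmt1*-KO, from 0 to 1 and 2 in E7.5 Exe *Dnmt*-null against *Dnmt1*-KO and *Dnmt3a/3b*-DKO, from 1 to 2 between E6.5 control tissues, from 3 to 5 between stages in Exe, from 0 to 1 for the stage difference in Exe and the tissue difference at E6.5, and from 0 to 1 for O48 against WT. Smaller moves with DESeq2 were from 2 to 3 in E7.5 *Dnmt*-null Epi and from 3 to 4 in E7.5 *Dnmt*-null Exe and the libraries labelled Mir-6KO, and under the study's thresholds from 3 to 4 in E7.5 *Dnmt*-null Exe and from 2 to 3 in *Dnmt*-null Epi against *Dnmt3a/3b*-DKO. Without a count filter they went from 0 to 1 in E6.5 Epi (*Dnmt*-null against *Dnmt1*-KO), from 0 to 1 and 2 in E7.5 Exe (*Dnmt*-null against *Dnmt1*-KO and *Dnmt3a/3b*-DKO) and from 1 to 2 between E6.5 control tissues. RLE factors gave 2 in place of 1 between E6.5 control tissues and 1 in place of 0 for O48 against WT, and a mean of at least 10 counts gave 2 between E6.5 control tissues. Fits of only the groups compared gave 0 in place of 1 for E7.5 *Dnmt1*-KO Exe, 1 in place of 3 for E7.5 *Dnmt*-null Exe and 2 in place of 0 for O48 against WT, and a fit of the controls only gave 2 between E6.5 tissues and 5 between stages in Exe. The causes were not tested.

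Leaving out 1 library at a time gave 1 to 3 members called in E7.5 *Dnmt*-null Exe against control, 0 to 1 against either other mutant, 2 in every case in E7.5 *Dnmt*-null Epi against control, 1 to 2 between E6.5 control tissues, 0 to 3 between stages in Exe, 0 to 2 between stages in Epi and for the stage difference in Epi, and 2 to 5 for the libraries labelled Mir-6KO. In E7.5 *Dnmt*-null Exe the calls of miR-143-3p and miR-145a-3p were lost without *Dnmt*-null library 1 or 2, or control library 1, 3 or 4, and the -1.35 of miR-143-3p became -1.11 without control library 1. The stage call of miR-145a-5p in Exe was lost without 6 of the 8 libraries. The call of miR-199a-5p in the libraries labelled Mir-6KO became -1.16 without the first of them.

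Leaving the *Dlk1-Dio3* miRNAs out of the TMM factors moved the median of all miRNAs by 0.32 in E7.5 *Dnmt*-null Epi, by 0.16 in E7.5 *Dnmt*-null Exe and by 0.40 in the libraries labelled Mir-6KO. The member calls in E7.5 *Dnmt*-null Epi were kept, and the call of miR-143-3p in E7.5 *Dnmt*-null Exe was lost (adjusted p = 0.0721). RLE factors moved the median of all by 0.43 between E6.5 control tissues and by -0.18 between stages in Exe.

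Replicate numbers did not pair the samples by the criterion that every pair of the same number correlates over 0.1. Libraries of the same number had a median correlation of 0.055 between Exe and Epi (30 pairs, 8 over 0.1), where 90 pairs of different number had a median of -0.012 (2 over 0.1), and of 0.010 between genotypes (91 pairs, 11 over 0.1). Since every pair had to pass, the criterion cannot show that pairing was absent. Whether Exe and Epi of the same number came from the same embryos is not stated in the sources used here. The tests of Exe against Epi took the libraries as unpaired, and the replicate block used the number across all groups, not pairs within a genotype. With the replicate number as a block, calls over all miRNAs went from 30 to 19 in E7.5 *Dnmt1*-KO Exe, from 23 to 12 in E7.5 *Dnmt*-null against *Dnmt3a/3b*-DKO Exe and from 403 to 313 in the libraries labelled Mir-6KO. Among members, under the block, miR-143-3p in E7.5 *Dnmt*-null Exe had an adjusted p of 0.0767 and miR-199a-5p in the libraries labelled Mir-6KO one of 0.0922, and no other member call changed.

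Depth limited the E6.5 Exe and Epi libraries most, where 1 count can stand for many CPM. The alternatives for the SC embryos labelled DKO;*Dnmt*-null were not run, since their table holds no control libraries.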

Other observations

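The 3 SC libraries at E6.5 labelled DKO;*Dnmt*-null, in a table of their own, held 189, 130 and 141.7 CPM of miR-143-3p on 258, 23 and 34 counts. Their counts were 36, 0 and 9 for miR-145a-3p, 17, 0 and 1 for miR-145a-5p, 58, 11 and 8 for miR-199a-3p, and 82, 5 and 21 for miR-199a-5p. The 3 libraries labelled 408-AG-haESC, which were put in no group, held 78.6, 74.5 and 73.7 CPM of miR-199a-5p and 172, 176 and 182 CPM of miR-145a-3p.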
